A study of Mus musculus with 12 samples.

Results

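The cytosolic ribosome of a mouse cell is built from a small and a large subunit, and the genes described here encode the proteins of both, with the symbols Rps for the small and Rpl for the large subunit. They were taken by symbol, as names that begin with Rps or Rpl and a number together with *Rplp0*, *Rplp1* and *Rplp2*, without pseudogenes, the binding protein names and the Rps6k kinases, and with a level over 1 FPKM in at least 3 of 12 libraries. FPKM, mapped fragments relative to transcript length and library size, is a level corrected for gene length and library depth. The rule found 82 of the 24439 genes listed, 32 of the small and 50 of the large subunit. Another 5 symbols fitted by name and did not pass in any library. The highest of these was *Rps4l*, at up to 0.997 FPKM, and the lowest value of a member in a single library was that of *Rpl26*, which ran from 2.91 to 61.0 FPKM. All 82 members were over 1 FPKM in all 12 libraries. Since the members were chosen by their FPKM level, levels are given as a description and were not tested.

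Ribosomal proteins are made in equal amounts and joined to ribosomal RNA in the nucleolus. Their mRNAs begin with a run of pyrimidines, the 5′ terminal oligopyrimidine or TOP motif, through which the kinase mTOR and the RNA-binding protein LARP1 set their translation. A resting T cell that is activated enlarges its ribosome supply before it divides, and IL-2 signalling through STAT5 and PI3K sustains growth of the T blast cell. Most ribosomal protein genes have processed copies elsewhere in the genome, and a few have a paralogue that is itself expressed.

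RNA-Seq was made from CD4 T cells of C42 mice, which carry a 130 kb human *IL3*/*CSF2* transgene, as do all groups. The cells were turned into T blast cells (TB) with 2 µg/ml concanavalin A for 40 h and expanded in 50 U/ml IL-2, for 30 h by the methods and about 2 days by the labels. They were then cultured with IL-2 (TB IL-2) or for 16 h without it (TB IL-2nil), and both were also given PMA at 20 ng/ml and 2 µM calcium ionophore (PMA/I) for 2 h (TB+ IL-2 and TB+ IL-2nil). Each group has 3 libraries. The sources do not say whether these came from separate animals or cultures, so P-values measure the spread between libraries, which may be technical. Read counts are not given and depth was therefore known only as a ratio, which ran from 0.409 (labelled TB IL-2nil replicate 2) to 1.26 times the median library. The cells expressed all 6 markers of CD4 T cells (*Cd3d*, *Cd3e*, *Cd3g*, *Cd4*, *Cd5* and *Cd28*) above 1 TPM in all 12 libraries.

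The library labelled TB IL-2nil replicate 3 and the library labelled TB+ IL-2 replicate 3 went against their labels. *Il2*, the gene of the cytokine that PMA/I induces, was at 1368 FPKM in the former and at 0.290 FPKM in the latter. In the study's own table of called genes, the columns of these names hold the values of each other's library, at 100% of 1391 genes within 0.1%, and the library of the same label met 0.0719%. Both libraries were placed as in that table. Each result was repeated by the labels, and without both libraries. By the labels 0 of the 82 members passed the test in any comparison. Few genes did: 0.0723% were higher and 0.0482% lower with IL-2 in TB cells and 0.185 and 0.0321% in TB+ cells, and with PMA/I 0.241 and 0.257% in cells with IL-2 and 1.92 and 3.46% in cells without it.

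Levels below are in TPM, the FPKM value rescaled so that a library sums to 1000000, and then scaled to a common 75th percentile of the genes over 1 TPM. A log2 difference is between group means of log2(TPM + 1) (at low TPM the added 1 makes changes look smaller) and was tested in limma over 12442 genes in all 12 libraries. A member is said to be higher or lower, to rise or to fall, at a Benjamini-Hochberg adjusted P under 0.05.

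At the annotated starts of the genes, the sequence that could be read from RefSeq (mouse build GRCm38.p6) covered 62 of the 82 members. The TOP letters CTTTCC, the letters CTTTTC or the letters CTCTTT, which can overlap, stood on the transcribed strand between 20 bases before and 30 bases after the start in 23 of the 62 (37.1%), and in 6.23% of 27025 genes. On the other strand they stood in 4.84% of members and 6.04% of genes. Among 69 mitochondrial ribosomal protein genes, whose proteins serve the organelle's own ribosome, the share on the transcribed strand was 5.80%. The ETS-type letters CCGGAAG, on either strand of 300 bases, were in 38.7% of members, 37.7% of the mitochondrial set and 9.93% of genes. The YY1-type letters AAGATGGC were in 9.68%, 17.4% and 3.19%. These are matches of letters and not sites. The windows below run from 20 bases before to 20 bases after the start, with the TOP letters in capitals. They are shown for some of the members that passed the test of the IL-2 response described further on. The lower members *Rps14* and *Rpl17* are not among them. Only the first listed start of each gene was read here, in a shorter window than that of the shares above. Of the lower members with IL-2, *Rps9*, *Rpl18* and *Rps27rt* (printed further on in a longer window) had the letters in this window and *Rpl37a* and *Rpl9* did not. The higher members *Rps27l*, *Rpl26* and *Rps2* had none of them in it. Other runs of pyrimidines were not counted. These few windows cannot show whether higher and lower members differ in their starts, which was not tested.
Rps9, chr7:3704021-3704060, plus strand: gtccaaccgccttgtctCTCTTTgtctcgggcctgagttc
Rpl18, chr7:45718051-45718090, plus strand: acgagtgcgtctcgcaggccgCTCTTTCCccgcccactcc
Rpl37a, chr1:72711240-72711279, plus strand: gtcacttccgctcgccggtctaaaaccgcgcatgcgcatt
Rpl9, chr5:65391412-65391451, minus strand: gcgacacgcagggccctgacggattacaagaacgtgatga
Rps27l, chr9:66946066-66946105, plus strand: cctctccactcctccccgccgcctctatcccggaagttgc
Rpl26, chr11:68901546-68901585, plus strand: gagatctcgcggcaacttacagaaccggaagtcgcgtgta
Rps2, chr17:24720043-24720082, plus strand: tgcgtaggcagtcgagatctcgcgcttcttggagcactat

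One pair of members cannot be told apart by their coding sequence, which bears on all their values. *Rps27* and *Rps27rt*, a retrotransposed copy of it, have the same 255 coding bases with 0 differences, while their paralogue *Rps27l* differs from both at 61 of 255 bases (76.1% identity). The windows below, from 25 bases before to 30 bases after each start, show in capitals a run of 38 bases that both starts share and that continues beyond the window.
Rps27, chr3:90213619-90213673, minus strand: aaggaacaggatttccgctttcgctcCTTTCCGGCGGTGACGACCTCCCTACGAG
Rps27rt, chr9:114982710-114982764, minus strand: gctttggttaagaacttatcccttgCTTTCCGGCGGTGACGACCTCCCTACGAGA

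Copies elsewhere are the rule for these genes. Of 31-base windows of the coding sequence (GENCODE M1 models on mm9, the build of the files), a median of 96.2% per member was also found outside the gene, and for 31 of the 80 members with a coding sequence all windows were. How the study's counting divided reads between such copies was not tested. Among the members least touched were *Rpl8* (11.2% of windows), *Rps3* (18.9%) and *Rpl4* (38.9%), and values of *Rpl8* and *Rps3* are given below.

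As a group the members took a large part of the RNA. Without short non-coding RNAs, which took 16.6 to 53.2% of TPM, the 82 members made up 18.8, 19.0 and 19.7% of TPM in TB IL-2 and 22.0, 25.9 and 24.8% in TB IL-2nil. With PMA/I, they made up 20.2, 21.0 and 20.5% in TB+ IL-2 and 22.4, 23.7 and 24.3% in TB+ IL-2nil. By this share, every library without IL-2 was above every library with it. The means were 19.2% ± 0.501 and 24.2% ± 1.98 (SD, n = 3) without PMA/I, and 20.6% ± 0.426 and 23.5% ± 0.960 (SD, n = 3) with it. By the labels the TB IL-2nil mean was 22.8% ± 2.77 (SD, n = 3) and that of TB+ IL-2 22.0% ± 2.44 (SD, n = 3), and the groups overlapped. Of all TPM, short non-coding RNAs included, the share was 13.9% ± 2.83, 16.5% ± 0.729, 15.6% ± 0.322 and 13.6% ± 2.93 (SD, n = 3) in the order TB IL-2, TB IL-2nil, TB+ IL-2 and TB+ IL-2nil, and this order of the groups does not keep the IL-2 groups apart. In scaled TPM the summed level of the members was 129807 ± 11133 in TB IL-2 and 148330 ± 21740 in TB IL-2nil (SD, n = 3). These groups overlapped, with TB IL-2nil replicate 1 at 124170 TPM, below the 136103 and 136366 TPM of TB IL-2 replicates 2 and 3. With PMA/I the sum was 155694 ± 6473 TPM with IL-2 and 176273 ± 3990 TPM without it (SD, n = 3), without overlap. A larger share of cells with many ribosomes and more such RNA per cell cannot be told apart in bulk RNA. The summed level of the large subunit was 1.26, 1.27, 1.26 and 1.27 times that of the small subunit in the same order of groups.

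**Figure D1:**
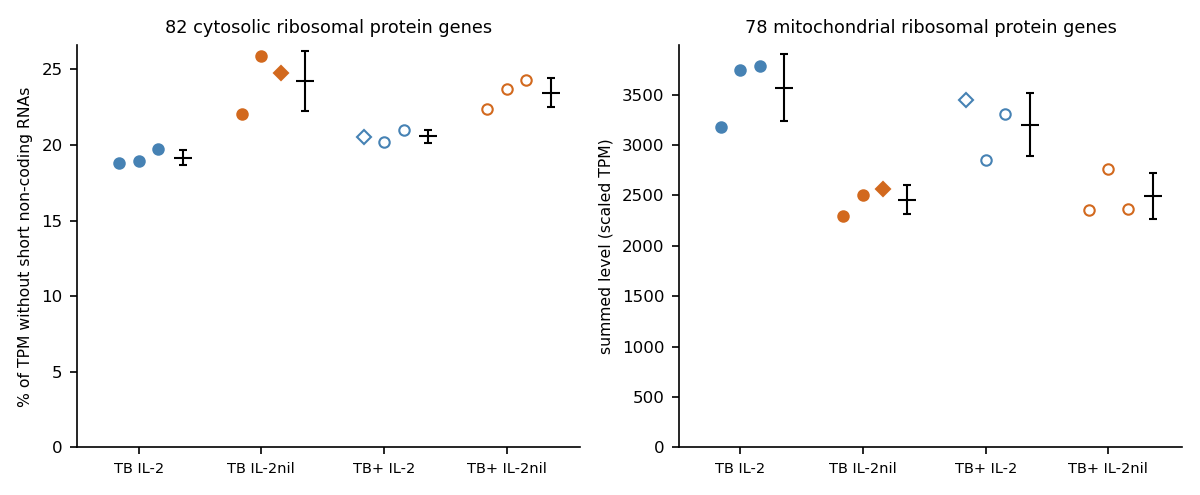
Left, percent of TPM (short non-coding RNAs left out) in the 82 cytosolic ribosomal protein genes. Right, summed scaled TPM of the 78 mitochondrial ribosomal protein genes. Points are libraries, blue with and orange without IL-2, open with PMA/I, diamonds the 2 libraries placed against their labels, and bars are means ± SD. The 6 libraries without IL-2 lie at 22.0 to 25.9% on the left, above the 18.8 to 21.0% of the 6 with IL-2, and below them on the right. The panels are on unlike scales. In scaled TPM the summed level of the cytosolic genes overlapped between TB IL-2 and TB IL-2nil.

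Levels ran over 212-fold, from *Rpl37rt* at a mean of 21.2 TPM to *Rpl41* at 4502 TPM over the 12 libraries. The next highest were *Rps27rt*, also at a mean of 4502 TPM, and *Rplp1* at 3968 TPM, and the ranges over libraries of these 3 genes overlapped (3038 to 5281, 3077 to 7316 and 3377 to 4829 TPM). Of the 82 members, 64 had a mean over 1000 TPM and 5 a mean under 100 TPM, namely *Rpl26* (67.1 TPM), *Rpl7l1* (54.5 TPM), *Rpl30* (45.6 TPM), *Rps27* (39.4 TPM) and *Rpl37rt*. *Rpl26*, *Rpl30* and *Rps27* encode regular subunit proteins, yet stood at 3.40, 2.31 and 2.00% of the median member (1973 TPM). Of the windows of *Rpl26* and *Rpl30*, 92.6 and 90.3% were found elsewhere, and the level of *Rps27* is that of a gene whose coding sequence is shared with *Rps27rt*.

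Most members moved together from library to library. The SD over 12 libraries of a member's log2 level relative to the median member of the same library had a median of 0.16, was under 0.2 for 52 members and over 0.5 for 6. These 6 were *Rps27* (1.42), *Rpl26* (1.29), *Rpl30* (0.75), *Rps27l* (0.73), *Rpl22l1* (0.56) and *Rps2* (0.54). The steadiest was *Rpl6* (0.051), of the large subunit, followed by *Rps23* (0.061).

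The first comparison asks what continued IL-2 does to these genes in T blast cells that were not restimulated. Between TB IL-2 and TB IL-2nil, 4 members were higher with IL-2 and 8 were lower, while 17.3 and 22.3% of all genes tested were. The median log2 difference of the members was -0.20, against -0.13 over all genes, and 58 of the 82 were negative. Single libraries moved this median. It was -0.35 without TB IL-2nil replicate 1 (all genes -0.11), -0.13 without TB IL-2 replicate 1 (all genes -0.15) and -0.13 without TB IL-2nil replicate 2 (all genes -0.14), so that in these last 2 fits it lay above that of all genes. The higher members included *Rpl26*, *Rps27l* and *Rps2*, and the lower ones *Rps14*, *Rps27rt*, *Rpl18*, *Rpl37a*, *Rpl17*, *Rps9* and *Rpl9*. These counts depend on the scaling and on single libraries. In TPM without the percentile 2 were higher and 0 lower, against 9.81 and 11.5% of all genes, after quantile normalization 3 and 22, against 19.2 and 21.6%, and with short non-coding RNAs left out and no percentile 3 and 23, against 14.0 and 27.0%. The lower members were 2 without TB IL-2nil replicate 2 (17.9% of all genes), 13 without TB IL-2nil replicate 1 (17.3%), and 4, 5 and 3 without TB IL-2 replicate 1, 2 and 3 (21.9, 15.3 and 16.0%). Groups did not overlap for 5 members that were higher and 21 that were lower, against 22.8 and 30.4% of all genes. Without both misplaced libraries *Rpl26* and *Rps27l* were higher and *Rps14*, *Rpl18* and *Rpl37a* lower, where 14.4 and 17.9% of all genes were. Blocked on the replicate number, 6 members were higher and 14 lower, against 21.3 and 29.5% of all genes. In bulk RNA from these cultures, markers of B cells also differed, with a summed level of 5.94 to 10.4 TPM in TB IL-2 and 23.2 to 29.6 TPM in TB IL-2nil over 4 of 5 listed markers (*Cd79a* the most abundant in TB IL-2, *Cd79b* in TB IL-2nil, and none at 0). The 6 markers of CD4 T cells summed to 1204 to 1291 TPM and to 2021 to 2164 TPM, respectively (*Cd3e* the most abundant in the former and *Cd3d* in the latter). Their part in the result was not tested.

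*Rps27l*, a paralogue of *Rps27* known as a target of p53, lies on chr9:66793893-66797323 (mm9, plus strand). It was at 273, 270.2 and 285 TPM in TB IL-2 and at 124, 101 and 91.9 TPM in TB IL-2nil. With PMA/I it was at 333, 305 and 312 TPM in TB+ IL-2 and at 209, 184 and 149.7 TPM in TB+ IL-2nil. Every library with IL-2 was above every library without it. The log2 difference without PMA/I was 1.39 (SE 0.16, adjusted P = 0.000169, limma), or 2.63-fold. It kept an adjusted P under 0.05 in 24 of 25 alternatives, the exception being the grouping by the labels (0.81, adjusted P = 0.583, limma).

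*Rpl26* encodes a large subunit protein that also binds p53 mRNA and lies on chr11:68715085-68720491 (mm9, plus strand). It was at 48.2, 100 and 142 TPM in TB IL-2 and at 10.8, 15.9 and 22.6 TPM in TB IL-2nil. The groups did not overlap, although TB IL-2 spread over a wide range. The log2 difference of 2.41 (SE 0.59, adjusted P = 0.00798, limma) was the largest of the members, and it was past the threshold in 24 of 25 alternatives, again all but the grouping by the labels. *Rpl26* was the one member over 3-fold here (4.69% of all genes were higher and 2.73% lower by that much), and the study lists it among its called genes.

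*Rps2*, of the mRNA entry side of the small subunit, was at 2368, 2555 and 2592 TPM in TB IL-2 and at 1226, 2053 and 1215 TPM in TB IL-2nil. The groups did not overlap, with TB IL-2nil replicate 2, the shallowest library, nearest to TB IL-2. The log2 difference was 0.79 (SE 0.24, adjusted P = 0.0217, limma). It was 0.65 without both misplaced libraries and no longer past the threshold (adjusted P = 0.0941, limma).

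The members that fell did so by less. *Rps27rt* was at 3077, 3371 and 3151 TPM in TB IL-2 and at 5349, 4443 and 5626 TPM in TB IL-2nil. All libraries without IL-2 were above those with it, and the log2 difference was -0.68 (SE 0.18, adjusted P = 0.0115, limma). *Rps14*, the gene whose loss underlies anaemia in the 5q deletion syndrome, was at 2305, 1792 and 1930.1 TPM in TB IL-2 and at 3737, 3379 and 2749 TPM in TB IL-2nil. Its groups did not overlap, and the log2 difference was -0.71 (SE 0.24, adjusted P = 0.0336, limma).

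*Rpl18* was at 1399, 1481 and 1470.1 TPM in TB IL-2 and at 2138, 2411 and 1948 TPM in TB IL-2nil, a log2 difference of -0.57 (SE 0.16, adjusted P = 0.0175, limma). *Rpl37a* was at 1592, 1409.6 and 1415 TPM and at 2251, 2186 and 2105 TPM, a log2 difference of -0.57. Neither gene's groups overlapped, nor did those of *Rpl17* (-0.54), *Rps9* (-0.47) and *Rpl9* (-0.45).

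When each library was scaled to the median ribosomal protein gene, so that a change is one relative to the members themselves, 4 members, *Rpl26*, *Rps27l* and *Rps2* among them, were higher and 0 were lower, against 20.1 and 12.9% of all genes. Without that scaling, *Rpl30* and *Rps27*, at the extremes in size, did not pass the test. *Rpl30* differed by 0.87 (SE 0.42, adjusted P = 0.118, limma) and *Rps27* by -1.56 (SE 0.82, adjusted P = 0.152, limma), with *Rps27* at 8.18, 10.9 and 11.3 TPM in TB IL-2 and 134, 15.6 and 14.2 TPM in TB IL-2nil. TB IL-2nil replicate 1 was far above the other 2 libraries of its group, and that gene has the coding sequence of *Rps27rt*.

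**Figure D2:**
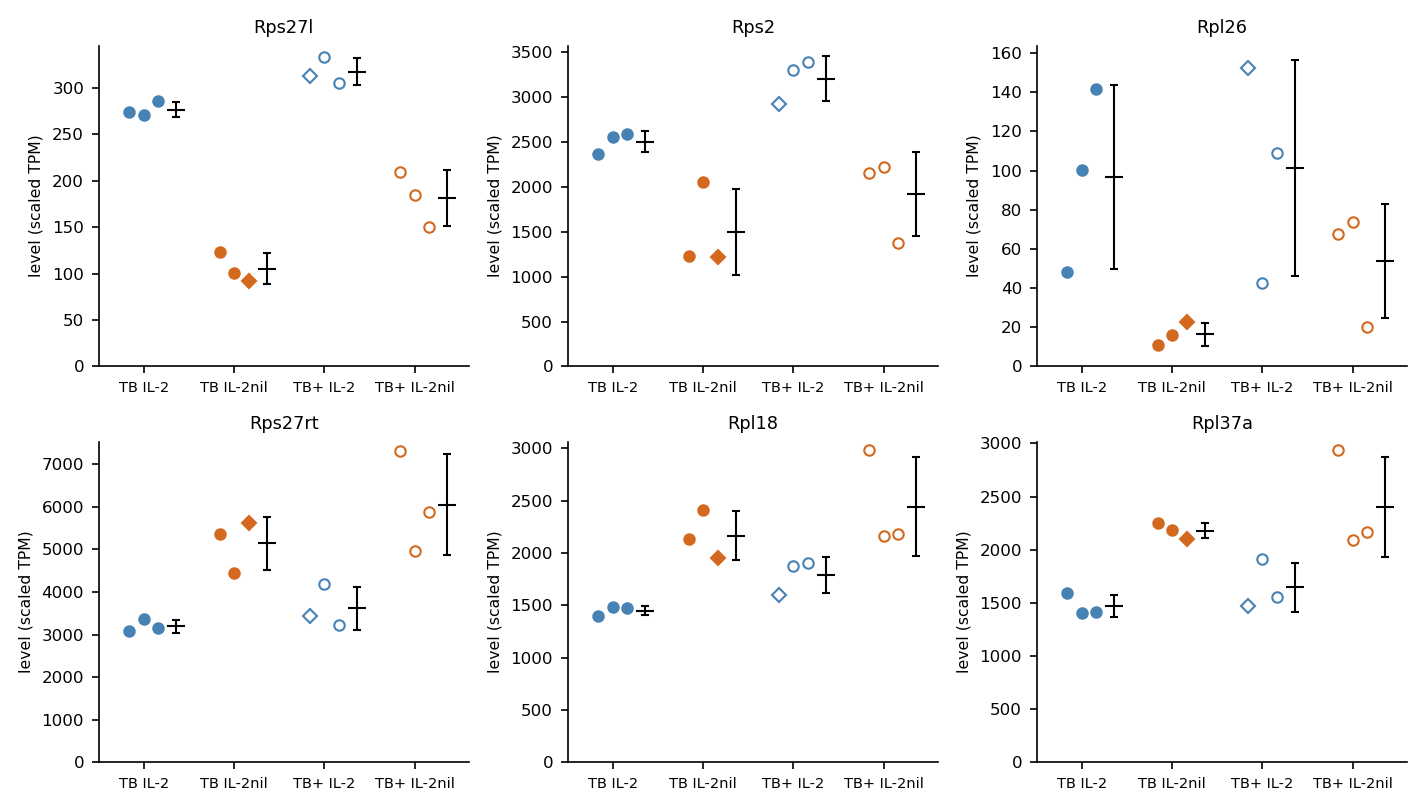
Level in scaled TPM of 3 members that were higher with IL-2 (top) and 3 that were lower (bottom) in TB cells. Points are libraries, blue with and orange without IL-2, open with PMA/I, diamonds the 2 libraries placed against their labels, and bars are means ± SD (n = 3). For *Rps27l* the libraries with IL-2 lie at 270.2 to 333 TPM and those without it at 91.9 to 209 TPM.

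The same IL-2 question can be put to restimulated cells, in libraries that are not those of the first comparison. Between TB+ IL-2 and TB+ IL-2nil, 2 members were higher and 3 lower with IL-2, against 12.9 and 8.4% of all genes tested. Groups did not overlap for 5 higher and 34 lower members, against 18.9 and 18.3% of all genes. The 5 members called here were also called, in the same direction, without PMA/I. *Rps27l* differed by 0.82 (SE 0.16, adjusted P = 0.0058, limma) and *Rps2* by 0.77, with 3306, 3387 and 2921 TPM in TB+ IL-2 and 2159.6, 2226 and 1376 TPM in TB+ IL-2nil. *Rps27rt* differed by -0.73, with 4186, 3229 and 3433 TPM against 7316, 4970.3 and 5867 TPM, *Rpl37a* by -0.54 and *Rpl17* by -0.52. With the scaling used here, 72 of all 82 members had the same sign in both IL-2 comparisons, 57 of them lower with IL-2 and 15 higher. In TPM without the 75th percentile, 17 members were positive in TB cells and 71 in TB+ cells. In TB+ cells the direction turned with the scaling. Of the 82 members 16 were positive here (median -0.21, all genes -0.04), 71 were in TPM without the 75th percentile (median 0.19, all genes 0.23) and 40 after quantile normalization (median -0.01, all genes -0.07). Blocked on the replicate number, 3 members were higher and 12 lower in TB+ cells, against 18.0 and 15.6% of all genes. The libraries of the 2 comparisons share replicate numbers, which pair them, so they are not fully independent. Without both misplaced libraries, *Rps27l* was the one member past the threshold (0.83, adjusted P = 0.0288, limma), where 7.08% of all genes were higher and 2.63% lower. *Rpl26* did not pass the test here, at 42.8, 109 and 152 TPM in TB+ IL-2 and 67.5, 73.8 and 20.4 TPM in TB+ IL-2nil, and its groups overlapped (0.92, adjusted P = 0.291, limma). *Rpl30* (0.84), *Rps27* (-2.05) and *Rpl34* (-0.56), the other members at the extremes, were not past the threshold. The same markers of B cells summed to 2.36 to 3.31 TPM in TB+ IL-2 and to 5.49 to 12.7 TPM in TB+ IL-2nil (3 of 4 lower with IL-2, *Cd79a* the most abundant and none at 0). Those of CD4 T cells summed to 1185 to 1321 TPM and to 1686 to 2077 TPM (3 of 6 lower, *Cd3e* the most abundant in 2 libraries of each group, *Cd3g* in TB+ IL-2 replicate 2 and *Cd5* in TB+ IL-2nil replicate 1). Their part in the result was not tested.

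**Figure D3:**
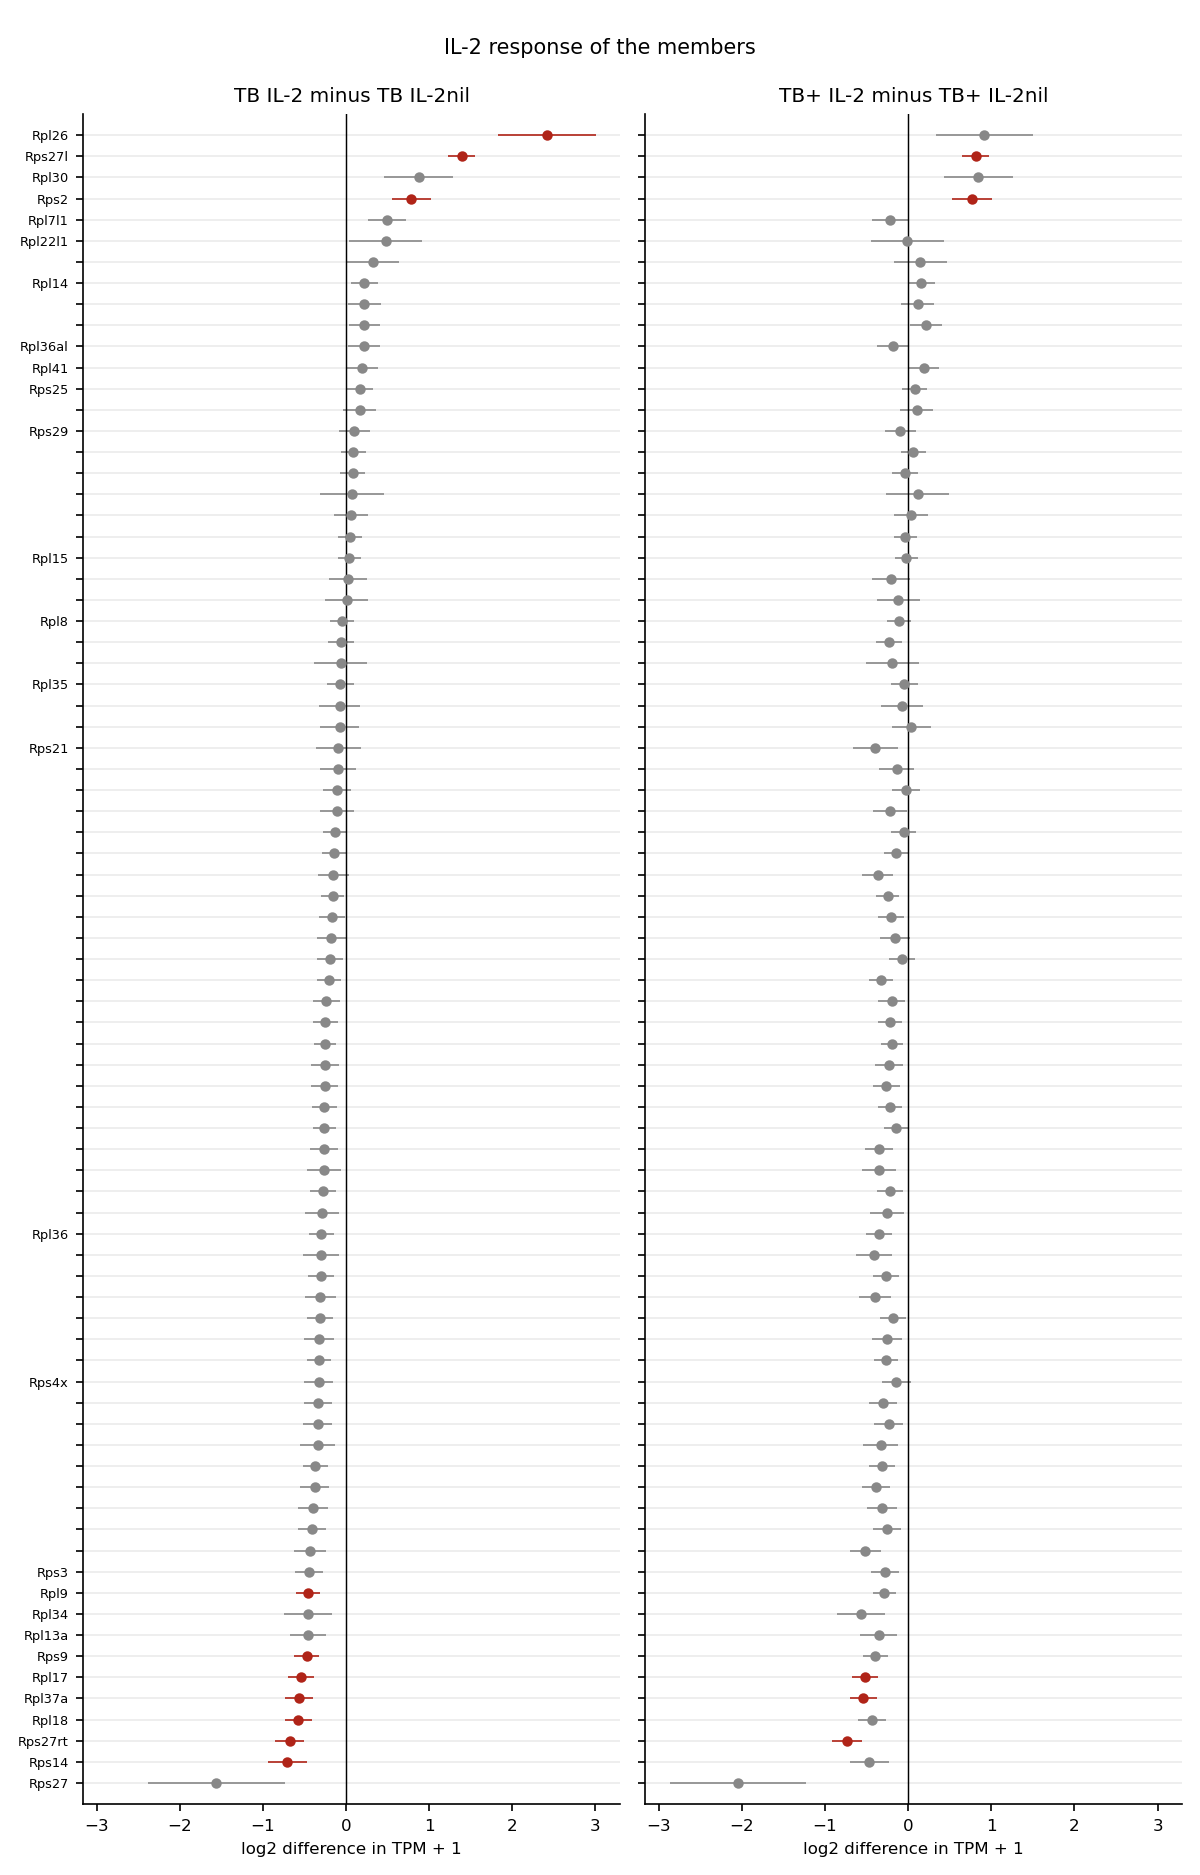
Log2 difference in TPM + 1 (points) and its SE (bars) of 79 members between cultures with and without IL-2, without PMA/I (left) and with it (right), sorted by the left panel, with labels for members whose log2 differences the text gives. The other 3 members are not drawn. Red marks members past an adjusted P of 0.05, which number 10 of the 12 called on the left and 5 on the right, and most of the others lie a little below 0 in both.

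A paralogue can replace its partner in the ribosome, so the balance within a family was followed as a share, which no single factor per library can change. *Rps27l* made up 8.14, 7.40 and 8.28% of the summed TPM of *Rps27*, *Rps27rt* and *Rps27l* in TB IL-2 and 2.20, 2.21 and 1.6% in TB IL-2nil. With PMA/I its share was 7.35, 8.60 and 8.32% in TB+ IL-2 and 2.77, 3.56 and 2.42% in TB+ IL-2nil. The shares with IL-2 were thus all above those without it, by 5.56 percentage points on average. An exact permutation test within the PMA/I states gave P = 0.005 (two-sided, n = 12 libraries), the smallest that scheme allows. It was added after the values were seen. The levels of *Rps27l* and *Rps27rt* already separated by IL-2 in these libraries, so this outcome was fixed in advance and adds no support. After adjustment over the 10 tests of 5 shares this P was 0.05, which is not under the threshold. By the labels the difference was 3.32 points (exact P = 0.08, adjusted 0.8, n = 12), and without both libraries it was 5.4 points (exact P = 0.01, adjusted 0.1, n = 10). When labels were swapped only within pairs of libraries that share a replicate number, the share was higher with IL-2 in 6 of 6 pairs (exact P = 0.0312, the smallest 6 pairs allow, adjusted 0.223). That outcome was fixed by the same levels.

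The 3-gene sum itself was 3486 ± 150.5 TPM in TB IL-2 and 5299 ± 644 TPM in TB IL-2nil (SD, n = 3), so that *Rps27l* rose while the family total was lower. *Rpl22l1* is the paralogue of *Rpl22*, a gene needed for αβ T cell development. Its share of the pair was 60.7% ± 6.34 in TB IL-2, 51.6% ± 5.37 in TB IL-2nil, 66.4% ± 4.16 in TB+ IL-2 and 63.4% ± 6.11 in TB+ IL-2nil (SD, n = 3). It was higher with PMA/I by 8.71 points (exact P = 0.035, n = 12), which gave 0.175 after adjustment, and in 5 of 6 pairs (exact P = 0.0625, adjusted 0.223). The shares of *Rpl36al* beside *Rpl36a*, *Rpl7l1* beside *Rpl7* and *Rpl37rt* beside *Rpl37* did not pass the test either, with exact P from 0.055 to 0.9 (n = 12). *Rpl36al* was at 34.2 to 41.2% of its pair, *Rpl7l1* at 1.43 to 2.63% and *Rpl37rt* at 2.63 to 2.77%, as group means.

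**Figure D4:**
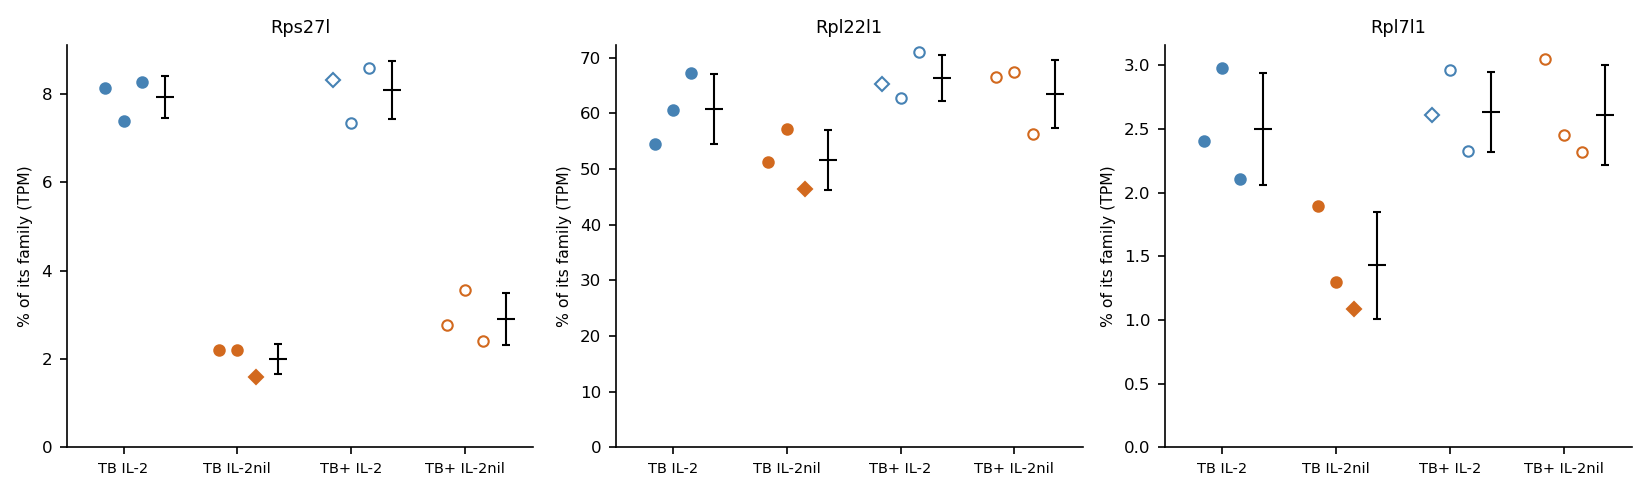
Share of *Rps27l* in the summed TPM of *Rps27*, *Rps27rt* and *Rps27l*, of *Rpl22l1* in *Rpl22* and *Rpl22l1*, and of *Rpl7l1* in *Rpl7* and *Rpl7l1*, in percent. Points are libraries, blue with and orange without IL-2, open with PMA/I, diamonds the 2 libraries placed against their labels, and bars are means ± SD. The *Rps27l* share lies at 7.35 to 8.60% in all 6 libraries with IL-2 and at 1.6 to 3.56% in the 6 without it.

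The next comparisons ask how the genes respond to 2 h of PMA/I. In cells kept in IL-2, 2 members were higher and 0 lower, while 11.8% of all genes were higher and 23.3% lower. With the median of ratios 37 were higher (all genes 16.7% higher and 14.7% lower), without a filter on low values 32 (10.4 and 12.1%) and in TPM without the percentile 0 (7.51 and 12.1%), with 0 lower in each. Leaving out 1 library gave 0 to 7 higher, where 8.9 to 12.4% of all genes were higher and 16.4 to 24.1% lower. The 2 were *Rpl35* (0.47, SE 0.16, adjusted P = 0.044, limma) and *Rpl9* (0.42, SE 0.14, adjusted P = 0.0407, limma). *Rpl9* was at 1827, 1775 and 1892 TPM in TB IL-2 and at 2543, 2647 and 2172 TPM in TB+ IL-2, with no overlap. Of the 82 members, 81 were positive (median 0.28, all genes -0.22). *Rps3*, among the members with few copies, differed by 0.41 (adjusted P = 0.0811, limma). *Rpl30* (0.64), *Rpl7l1* (0.49) and *Rps14* (0.49) had the highest differences, and *Rps21* (-0.09), *Rps29* (0.0007) and *Rpl26* (0.02) the lowest. Groups did not overlap for 43 higher and 0 lower members, against 16.6 and 35.1% of all genes. Blocked on the replicate number, 13 members were higher and 0 lower, against 15.0 and 31.3% of all genes. Of the markers, 2 of 4 of B cells were lower with PMA/I (5.94 to 10.4 and 2.36 to 3.31 TPM in sum) and 2 of 6 of CD4 T cells were higher, and short non-coding RNAs took 27.5% ± 14.4 of TPM without and 24.1% ± 2.94 with it (SD, n = 3). Their part in the result was not tested.

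In cells without IL-2, 11 members were higher with PMA/I and 0 lower, while 20.1% of all genes were higher and 41.1% lower. With the median of ratios 73 were higher and 0 lower (all genes 28.1 and 28.2%), without a filter on low values 45 and 0 (17.4 and 25%) and after quantile normalization 2 and 3 (23.4 and 30.4%). Leaving out 1 library gave 2 higher without TB+ IL-2nil replicate 1, 4 without TB+ IL-2nil replicate 2, 3 without TB IL-2nil replicate 1, 6 without the library labelled TB+ IL-2 replicate 3 and 8 to 16 in the others. In these fits 17.7 to 20.3% of all genes were higher and 36.9 to 41.2% lower. Groups did not overlap for 30 higher and 0 lower members, against 21.8 and 42.3% of all genes. The 82 differences were all positive, and their median was 0.26, where all genes had -0.38 (members 0.14 without TB IL-2nil replicate 1). The 4 markers of B cells were all lower with PMA/I (23.2 to 29.6 and 5.49 to 12.7 TPM in sum), 1 of the 6 of CD4 T cells was higher and 3 were lower, and short non-coding RNAs took 31.4% ± 8.83 of TPM without and 42.1% ± 10.3 with it (SD, n = 3). Their part in the result was not tested. *Rpl26* rose by 1.52 (SE 0.59, adjusted P = 0.0423, limma), from 10.8, 15.9 and 22.6 TPM to 67.5, 73.8 and 20.4 TPM, with overlap of the groups. Blocked on the replicate number, 19 members were higher and 0 lower, against 22.8 and 46.3% of all genes. *Rpl7l1*, which resembles a factor of large subunit assembly, was at 36.8, 35.8 and 24.3 TPM in TB IL-2nil and 90.4, 75.2 and 60.4 TPM in TB+ IL-2nil. Its groups did not overlap, and the log2 difference was 1.20 (SE 0.23, adjusted P = 0.000827, limma).

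*Rps27l* rose by 0.77 with PMA/I in cells without IL-2 (SE 0.16, adjusted P = 0.00173, limma). In cells kept in IL-2 it was not among the 2 members that passed the test with PMA/I. It was there at 273, 270.2 and 285 TPM before and at 333, 305 and 312 TPM after PMA/I, without overlap. Other higher members in cells without IL-2 were *Rpl36al* (0.58), *Rpl35* (0.44), *Rps25* (0.42), *Rpl36* (0.42), *Rpl14* (0.39), *Rpl15* (0.38) and *Rpl8* (0.37). Without both misplaced libraries *Rpl26*, *Rpl7l1* and *Rps27l* were higher and 0 members lower, against 17.8 and 35.9% of all genes. *Rpl22l1* was at 123, 287 and 179.6 TPM before and at 298, 503 and 300.8 TPM after PMA/I, without overlap and without passing the test (0.94, adjusted P = 0.0847, limma). It passed with the replicate block (adjusted P = 0.00361, limma). *Rpl13a*, whose protein is also a regulator of inflammatory mRNAs, *Rpl37a* and *Rpl41* had the lowest differences (0.06, 0.12 and 0.12).

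These PMA/I directions depend on the scaling. Under TPM without the 75th percentile, 7 of the 82 members were positive in cells without IL-2 (median -0.29, all genes -0.78), and 0 were called, where 10.5% of all genes were higher and 49.1% lower. Under quantile normalization the median was -0.21, and with the median of ratios it was 0.66. When the scale was set to the members themselves, *Rps27l* and *Rpl7l1* were higher and 0 members lower, against 15.4 and 46.6% of all genes. *Rps27l* and *Rpl7l1* kept their direction under each of these scalings. In cells with IL-2 the median was 0.20 without the percentile and 0.09 after quantile normalization, against 0.28 here. In every one of these settings the median of the members was above that of all genes in cells with IL-2, and below it in cells without IL-2 under quantile normalization alone.

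No member passed the test of the interaction, that is, a PMA/I response that differs with IL-2, whereas 1.57% of all genes were higher and 2.66% lower in it (0 of 82 members in limma, and 2 at an unadjusted P under 0.05). The lowest were *Rpl26* (-1.50, adjusted P = 0.305, limma), *Rpl7l1* (-0.71, adjusted P = 0.212, limma) and *Rps27l* (-0.58, adjusted P = 0.165, limma), and the highest *Rps14* (0.24), *Rps4x* (0.19) and *Rps3* (0.17).

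Single proteins with a known part outside the pool were also followed. *Rplp0*, *Rplp1* and *Rplp2* form the stalk of the large subunit, *Rps6* is the target of S6 kinase, *Rps27a* is made as a fusion with ubiquitin, and *Rpl5* and *Rpl11* bind MDM2 with the small ribosomal RNA of the large subunit. None of these, nor *Rpl13a* and *Rps3*, passed the test between TB IL-2 and TB IL-2nil, where 17.3% of all genes were higher and 22.3% lower. *Rps6* was at 1253, 1417 and 1473 TPM with IL-2 and at 1479.8, 1942 and 1779 TPM without it, which is no overlap by a narrow margin. *Rps3* was at 801, 739.9 and 762 TPM with IL-2 and at 948, 1257 and 966 TPM without it, also without overlap (-0.45, adjusted P = 0.0541, limma). *Rpl13a* differed by -0.46 (adjusted P = 0.116, limma).

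The study lists some members as the gene nearest to an IL-2-dependent DNase I hypersensitive site, primed (pDHS: *Rps21*, *Rpl31* and *Rplp1*) or inducible (iDHS: *Rpl34*, *Rpl38* and *Rpl31*). None of these passed the test in TB IL-2 against TB IL-2nil, where 17.3% of all genes were higher and 22.3% lower. With so few genes this says little. *Rpl34* differed by -0.45 (adjusted P = 0.228, limma) and passed in 1 of 25 alternatives.

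The symbol rule leaves out some ribosomal proteins with other names. *Fau*, whose product is a ubiquitin-like fusion that releases a small subunit protein, was at 1476, 1632 and 1651 TPM in TB IL-2 and at 2472, 2609 and 2717 TPM in TB IL-2nil. With PMA/I it was at 1815, 1839 and 1816 TPM with IL-2 and at 3216, 2442 and 2921 TPM without it, so that every library with IL-2 was below every library without it. It was lower with IL-2 in both comparisons, by -0.71 (SE 0.14, adjusted P = 0.00263, limma) and -0.64 (SE 0.14, adjusted P = 0.00915, limma). In TB cells *Fau* was past the threshold in 24 of 25 alternatives, all but the grouping by the labels. In TB+ cells it was past it in 20 of 25. It was not by the labels, without both misplaced libraries or when scaled to the ribosomal protein median. Nor was it in TPM without the percentile, where the TB+ difference was -0.24. *Rpsa* and *Rack1* did not pass the test (*Rack1* -0.33, adjusted P = 0.116, limma, without PMA/I).

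Other genes of ribosome supply were followed in the same fit. Of 78 mitochondrial ribosomal protein genes, 40 were higher and 2 lower with IL-2 in TB cells, against 17.3 and 22.3% of all genes, and their median log2 difference was 0.54. *Mrps28* (1.87, adjusted P = 0.000592, limma) and *Mrpl42* (1.72, adjusted P = 0.000514, limma) had the highest differences, and *Mrpl9* (-1.0) and *Mrpl24* (-0.63) the lowest. In TPM without the 75th percentile 9 were higher and 1 lower (median 0.46), against 9.81 and 11.5% of all genes. Without both misplaced libraries 29 were higher and 1 lower, against 14.4 and 17.9%, and by the labels 0 were called, against 0.0723 and 0.0482%. Their summed level was 3571 ± 335 TPM in TB IL-2 and 2456 ± 144 TPM in TB IL-2nil (SD, n = 3). As a percent of the cytosolic sum, which no single factor per library can change, it was 2.75% ± 0.0273 against 1.67% ± 0.170 (SD, n = 3), without overlap.

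Of 10 chaperones and carriers of ribosomal proteins, 6 were higher with IL-2 and 0 lower, against 17.3 and 22.3% of all genes, and their median was 0.85. *Grwd1*, a chaperone of RPL3 (1.82, adjusted P = 0.00146, limma), and *Rrs1*, which brings RPL5 and RPL11 to the pre-ribosome (1.51, adjusted P = 0.00524, limma), led them. With PMA/I in cells without IL-2, 6 were again higher and 0 lower, against 20.1 and 41.1% of all genes, *Grwd1* by 3.97 and *Rrs1* by 3.39. Of 15 genes of RNA polymerase I, which makes ribosomal RNA, 2 were higher and 2 lower with IL-2, where 17.3 and 22.3% of all genes were. *Polr1b*, its second-largest subunit (1.78, adjusted P = 0.00437, limma), and *Cd3eap* (0.71, adjusted P = 0.0361, limma) were higher, and *Taf1c* (-0.81) was lower. With PMA/I in cells without IL-2, 10 were higher and 2 lower, beside 20.1 and 41.1% of all genes.

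Of 22 translation factors and other genes with TOP mRNAs, 5 were higher and 3 lower with IL-2 (median -0.15, *Nap1l1* at 1.32, *Eif2s3x* at 0.73 and *Eif3f* at -0.75). The shares of all genes were again 17.3 and 22.3%. With PMA/I without IL-2, 14 of the 22 were higher and 0 lower (all genes 20.1 and 41.1%). This count depends on the scaling, with 2 higher and 1 lower in TPM without the percentile (median -0.03 against 0.52 here, all genes 10.5 and 49.1%) and 5 higher and 0 lower when scaled to the ribosomal protein median (all genes 15.4 and 46.6%). Of 14 genes of the mTOR, S6 kinase and LARP1 arm, 2 were higher and 3 lower with IL-2 (all genes 17.3 and 22.3%), namely *Larp1* (1.16, adjusted P = 0.0015, limma) and *Rheb* (0.81, adjusted P = 0.0116, limma) higher, and *Tsc1* (-0.80) and *Rptor* (-0.74) among the lower. With IL-2 in TPM without the percentile, 5 chaperones, 1 gene of RNA polymerase I, 1 with a TOP mRNA and 1 of the mTOR arm were higher, and 1 with a TOP mRNA was the one gene of these 4 lists that was lower, beside 9.81 and 11.5% of all genes. Without both misplaced libraries 7, 1, 2 and 2 in that order were higher with IL-2 and 0, 1, 2 and 3 lower (all genes 14.4 and 17.9%). With PMA/I without IL-2, 9 of the 22 with TOP mRNAs were then higher and 0 lower (17.8 and 35.9%). By the labels 0 genes of these 4 lists passed with IL-2 (0.0723 and 0.0482%).

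**Figure D5:**
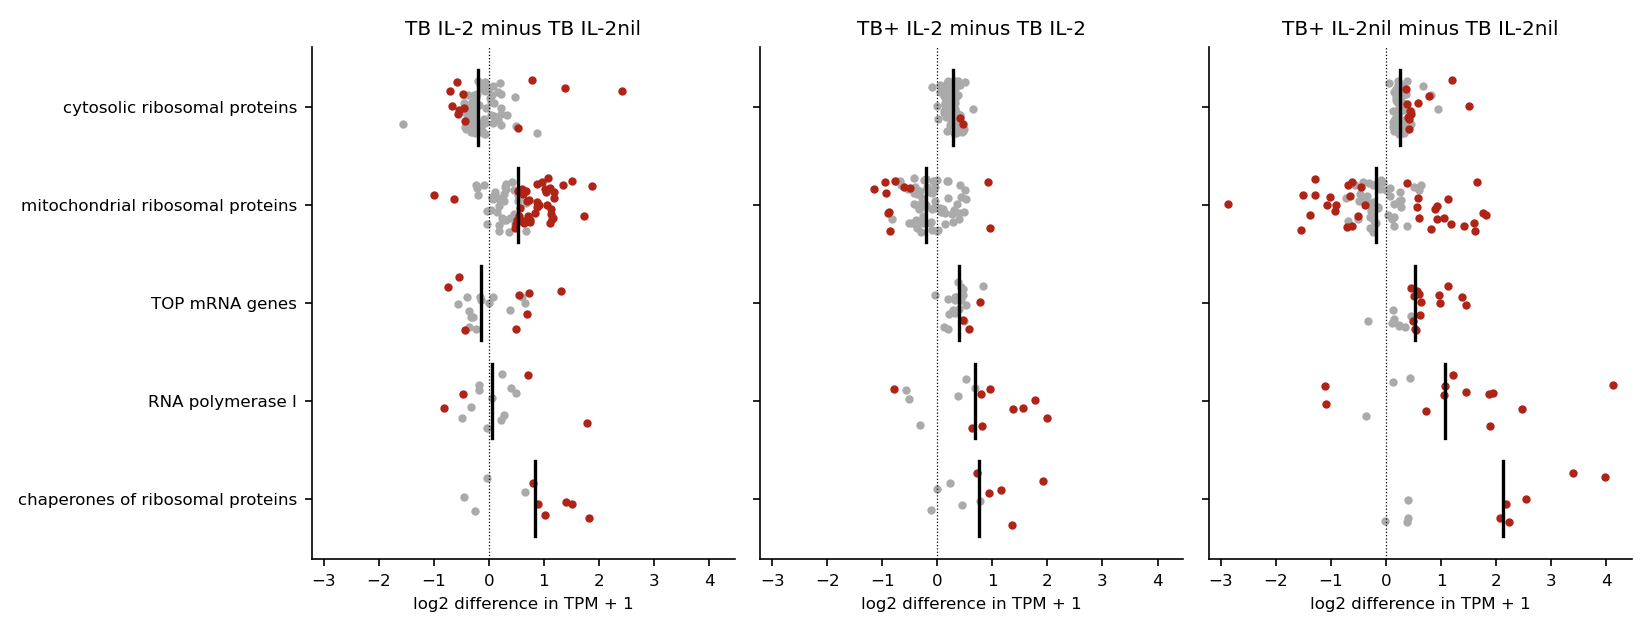
Log2 difference in TPM + 1 of each gene of 5 lists with IL-2 (left), with PMA/I in cells kept in IL-2 (middle) and with PMA/I in cells without IL-2 (right). Red points passed an adjusted P of 0.05 and black lines are medians. The cytosolic members lie at medians of -0.20, 0.28 and 0.26, while the chaperones lie at medians of 0.85, 0.75 and 2.13. In the same order the cytosolic members range from -1.56 to 2.41, from -0.09 to 0.64 and from 0.06 to 1.52.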

How the data were processed

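Reads were trimmed by the authors with Trimmomatic 0.32 and aligned to mm9 with HISAT2 2.1.0, and StringTie 1.3.3 gave the deposited FPKM values per gene and library, one file each. FPKM was rescaled to TPM (sum 1000000), scaled to a common 75th percentile of genes over 1 TPM, and tested as log2(TPM + 1) with limma 3.58.1 (R 4.3.3) over 12442 genes above 1 TPM in at least 1 library, with 4 groups of 3 libraries in a single fit and Benjamini-Hochberg adjustment. Tables and figures were made in Python 3.11.15 (numpy 2.4.6, pandas 2.3.3, matplotlib 3.10.9). The fit was tested on simulated data. Columns of the authors' fold changes were not used.

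The members, lists and rule for named genes were chosen with earlier results of these data known. Named were the 3 highest and 3 lowest members in each comparison, paralogues beside their namesakes, members with a known part outside the ribosome, the 3 highest and 3 lowest by level, members the study lists, and the 2 highest and 2 lowest of each other list. Further called members, members with few copies, and both tests of paralogue shares were added after their values were seen. Libraries with the same replicate number deviated together: with both misplaced libraries placed as described, 18 of 18 correlations of their deviations from the group means were over 0.1 (0.10 to 0.53), and the numbers were therefore taken to pair the libraries. By the labels 11 of 18 were. Some members and other genes that the rule would name are not reported here, and counts include them.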

Additional observations from a re-analysis of the deposited data

Results flagged for a closer look

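No member of the cytosolic set passed the test of the interaction (limma), in which the PMA/I response is compared between cells with and without IL-2. Of the other lists, 4 of 10 chaperones and carriers, 2 of 15 genes of RNA polymerase I and 2 of 14 of the mTOR arm were lower in it, and of 78 mitochondrial ribosomal protein genes 1 was higher and 3 were lower, beside 1.57 and 2.66% of all genes. The genes named in the text that passed were 6. The difference in the log2 response, with IL-2 minus without, was -2.34 for *Polr1b* (adjusted P = 0.0389, limma) and -1.65 for *Cd3eap* (adjusted P = 0.0277, limma), both of RNA polymerase I. It was -2.05 for the chaperone *Grwd1* (adjusted P = 0.0331, limma) and -2.03 for *Rrs1* (adjusted P = 0.0407, limma). For *Rheb*, which activates mTORC1, it was -1.27 (adjusted P = 0.0426, limma), and for *Larp1* -1.43 (adjusted P = 0.0265, limma). They passed the test in 7 (*Rheb*) to 13 (*Larp1* and *Cd3eap*) of 25 alternatives. Without both misplaced libraries none of the 6 passed the test in limma (adjusted P from 0.104 for *Cd3eap* to 0.161 for *Rheb*), where 3 of 12360 genes were higher and 1 lower.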

How the results depend on the processing

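By the labels 0 members were called in any comparison. With IL-2 in TB cells, 2 were higher and 3 lower without both misplaced libraries, 2 and 0 in TPM without the percentile, 22 lower after quantile normalization, 3 lower with the median of ratios, 0 lower when scaled to the ribosomal protein median, 5 lower with a variance trend, and 23 lower with short non-coding RNAs left out and no percentile (chosen after seeing the data). In the same order the shares of all genes lower were 17.9, 11.5, 21.6, 18.3, 12.9, 22.2 and 27.0%. With PMA/I in cells with IL-2, 0 were higher without the percentile, after quantile normalization, on the ribosomal protein scale, with a pseudocount of 0.1, with a trend and with short non-coding RNAs left out and no percentile, 1 with TPM above 1 in at least 3 libraries, 37 with the median of ratios, 32 without a filter and 3 without both libraries. Of all genes 7.51 to 13.6% were higher in the settings with 0, and 12.3, 16.7, 10.4 and 11.1% in the others. Without IL-2 these counts were 0 without the percentile, 2 higher and 3 lower after quantile normalization, 73 with the median of ratios, 2 on the ribosomal protein scale, 45 without a filter, 6 with a trend, 3 without both libraries and 2 with short non-coding RNAs left out and no percentile, where the shares of all genes higher were 10.5, 23.4 (30.4% lower), 28.1, 15.4, 17.4, 20.2, 17.8 and 15.2%. With IL-2 in TB+ cells, 1 was higher without both libraries, with the median of ratios, with a pseudocount of 0.1, without a filter and with a trend, 3 were higher after quantile normalization and on the ribosomal protein scale, and 0 were lower without both libraries, without the percentile, after quantile normalization and on the ribosomal protein scale, with 1 lower with a trend. Of all genes 7.08 to 13% were higher in the settings with 1, 11.1 and 14.2% in those with 3, and 0.466 to 8.41% lower in those with 0 and 8.67% with a trend. The cause was not tested.

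The replicate block, which takes up the pairing, gave 6 higher and 14 lower with IL-2 in TB cells, 3 and 12 in TB+ cells, and 13 and 19 higher with PMA/I with and without IL-2. Of the 12442 genes, the same fit gave 2656 higher and 3666 lower, 2245 and 1941, 1867 and 3889, and 2838 and 5762 in that order. It gave 0 members in the interaction. The pairing left the *Rps27l* share higher with IL-2 in all 4 complete pairs without both libraries (exact P = 0.125, the smallest 4 pairs allow), and by the labels in 4 of 6 (exact P = 0.125). The result in the 4 complete pairs was fixed by the levels of *Rps27l* and *Rps27rt*.

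Leaving out 1 library at a time gave 2 to 5 higher and 2 to 13 lower with IL-2 in TB cells, with the lowest count of lower members without TB IL-2nil replicate 2 and the highest without TB IL-2nil replicate 1. It gave 1 to 2 higher and 0 to 3 lower in TB+ cells, the 0 without TB+ IL-2nil replicate 1, TB+ IL-2 replicate 2 or the library labelled TB IL-2nil replicate 3. With PMA/I it gave 0 to 7 higher with IL-2, the 7 without the library labelled TB IL-2nil replicate 3, and 2 to 16 higher without IL-2, the 2 without TB+ IL-2nil replicate 1 and the 16 without TB IL-2nil replicate 2. No member was lower with PMA/I in these. In these 12 fits 13.8 to 17.9% of all genes were higher and 15.3 to 22.8% lower with IL-2 in TB cells, 8.17 to 12.8 and 3.31 to 8.71% in TB+ cells, and with PMA/I 8.90 to 12.4 and 16.4 to 24.1% with IL-2 and 17.7 to 20.3 and 36.9 to 41.2% without it.

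Of 2100 values of 84 results for single genes, 1635 kept their direction and side of the threshold, 382 were no longer past it, 33 came past it and 50 changed sign. With PMA/I without IL-2, TPM without the percentile gave -0.11 for *Rpl35*, -0.13 for *Rps25* and *Rpl36*, -0.16 for *Rpl14*, -0.18 for *Rpl15*, -0.19 for *Rpl8*, -0.43 for *Rpl41* and *Rpl37a* and -0.49 for *Rpl13a*. Quantile normalization gave -0.10 for *Rpl8*, -0.12 for *Rpl36al*, -0.28 for *Rps25*, -0.30 for *Rpl14*, -0.32 for *Rpl41*, -0.35 for *Rpl37a*, -0.37 for *Rpl13a* and -0.38 for *Rpl15*. The ribosomal protein scale gave -0.12 for *Rpl41*, -0.13 for *Rpl37a* and -0.19 for *Rpl13a*, and with short non-coding RNAs left out and no percentile these were -0.18, -0.18 and -0.24. With PMA/I with IL-2, *Rps29* and *Rpl26* were at -0.078 and -0.059 without the percentile, -0.20 and -0.13 after quantile normalization, -0.26 and -0.24 on the ribosomal protein scale, -0.16 and -0.14 with short non-coding RNAs left out and no percentile, -0.024 and -0.88 by the labels, -0.023 and -0.0049 with TPM above 1 in at least 3 libraries, and -0.10 and -0.36 without both libraries. *Rps21* was at 0.16 with the median of ratios and 0.062 without a filter. Leaving out 1 library gave -0.41 to 0.54 for *Rpl26*, -0.10 to 0.11 for *Rps29* and -0.25 to 0.049 for *Rps21* with IL-2, and -0.055 to 0.19 for *Rpl13a*, -0.078 to 0.22 for *Rpl41* and -0.033 to 0.21 for *Rpl37a* without it. Depth is known only as a ratio, so counting error could not be given.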
